A study of Mus musculus with 6 samples.

Results

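Dppa2, Dppa3, Dppa4, Dppa5a, Utf1, Fbxo15 and L1td1 are genes whose mRNA marks mouse embryonic stem cells (ESCs). They were taken by name from the RNA-seq table of the series, where each has 1 row, which makes 7 of 23235 rows. RNA was sequenced from the mouse ESC line E14Tg2a at passages 37 to 40, grown in medium with serum. In the LIF condition, 3 samples came from pluripotent ESCs kept with Leukemia Inhibitory Factor (LIF). In the RA condition, 3 samples came from monolayers of the same line without LIF after 48 h in 1 μM Retinoic Acid (RA), which the study names neuronal cells (NCs). RNA of a sample was drawn from a pair of whole culture plates with no sorting, so that fewer cells of a type and less RNA per cell cannot be told apart. Each gene is described by its FPKM (mapped fragments relative to transcript length and to the depth of the library), of which the table holds 1 value per condition, set by the authors from all 3 samples. No spread between replicates could therefore be given, no difference below was tested, and "lower" and "higher" describe these pooled values.

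The genes belong to several protein families. Dppa2 and Dppa4 encode related proteins with a SAP domain, a fold that binds DNA. They bind each other, sit on chromatin of developmental genes in ESCs and are needed for expression of genes of the 2-cell embryo in ESC cultures. Dppa3 encodes a maternal and germ cell protein, also named Stella or PGC7, that protects the early embryo from inappropriate DNA methylation by acting on UHRF1. Dppa5a encodes a KH-domain RNA-binding protein, Utf1 a chromatin-associated protein of pluripotent cells, and Fbxo15 an F-box protein, the substrate adaptor of an SCF ubiquitin ligase. L1td1 encodes an RNA-binding protein that descends from the first open reading frame of a LINE-1 retrotransposon. Utf1 and Fbxo15 are long-known target genes of the pluripotency factors Pou5f1 (OCT4) and Sox2.

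Of the 7 genes, 6 had at least 2-fold lower FPKM in RA-treated cells than in ESCs, and Dppa2 was within the 2-fold limit. Among the 13293 genes with at least 1 FPKM in either condition, 10.6% were at least 2-fold lower in RA-treated cells and 12.5% at least 2-fold higher. Of the genes past the limit 54.0% were higher, a share that was 70.6% when each condition was divided by the sum of its FPKM. All 7 genes had more than 20 FPKM in ESCs, and of the 4515 genes with at least 20 FPKM in ESCs, 9.90% were at least 2-fold lower. That level was chosen after the values were seen. The median log2 ratio of RA over LIF was -2.21 for the 7 genes and -0.03 for all 13293. The summed FPKM of the 7 genes was 4306 in ESCs and 923 in RA-treated cells, and Dppa5a held 83.9% of the first sum and 84.5% of the second.

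**Figure D1:**
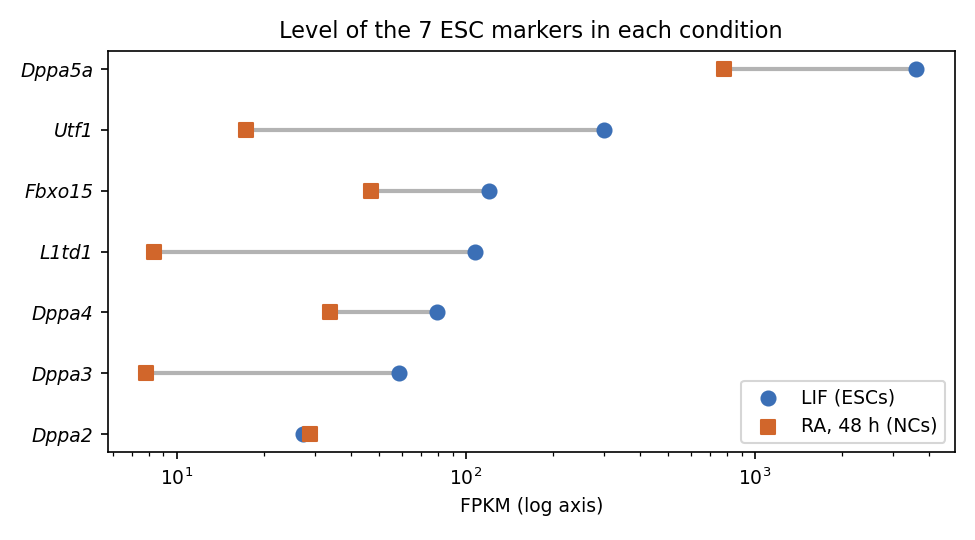
FPKM of the 7 ESC markers on a log axis, 1 point per condition (circles, LIF; squares, RA for 48 h), each the authors' value from 3 samples, joined by a line. Dppa5a lies far above the other genes in both conditions, the lines of Utf1 and L1td1 are the longest, and the points of Dppa2 nearly coincide at 27.3 and 29.0 FPKM.

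The upstream sequences of Utf1 and L1td1 are shown. These genes had the lowest ratios of the 7 but were not picked by ratio. RefSeq windows were not at hand for Dppa2, Dppa3, Dppa4 and Dppa5a. Fbxo15 was left out by a fixed rule, for which no reason was recorded. RefSeq on GRCm38.p6 gave a window of 250 bases before to 50 after the transcription start for both, and none was used for Dppa2, Dppa3, Dppa4, Dppa5a and Fbxo15. The Utf1 window is chr7:139943606-139943905 and the L1td1 window chr4:98726504-98726803, both on the plus strand and printed 5′ to 3′. Capitals mark matches to any of 5 short motifs searched on both strands, which were AGGTCA (a nuclear receptor half-site), GGGCGG (the GC box), ATTTGCAT (the octamer), CATTGT (a Sox core) and TATAAA (the core promoter box).
Utf1: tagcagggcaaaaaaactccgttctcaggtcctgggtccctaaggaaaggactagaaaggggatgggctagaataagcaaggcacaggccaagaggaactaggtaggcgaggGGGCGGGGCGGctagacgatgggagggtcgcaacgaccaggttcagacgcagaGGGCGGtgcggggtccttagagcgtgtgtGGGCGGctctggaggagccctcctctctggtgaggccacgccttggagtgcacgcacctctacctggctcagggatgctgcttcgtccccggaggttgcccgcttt
L1td1: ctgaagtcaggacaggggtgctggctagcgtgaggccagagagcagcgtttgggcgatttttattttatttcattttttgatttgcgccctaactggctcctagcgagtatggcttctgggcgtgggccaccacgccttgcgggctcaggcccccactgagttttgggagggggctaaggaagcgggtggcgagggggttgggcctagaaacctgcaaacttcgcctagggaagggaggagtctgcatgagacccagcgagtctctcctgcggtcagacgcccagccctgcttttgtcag

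The Utf1 window held 4 GC boxes, which begin 138, 133, 85 and 56 bases before the RefSeq start, and those at 138 and 133 overlap by a base. The GENCODE start of Utf1, at 139943789, lies upstream of the RefSeq start, so that these distances do not hold for it. Of 32851 RefSeq windows of this length, 35.7% held at least 1 GC box and 5.49% held at least 4. The other motifs had no match in the Utf1 window, and none of the 5 had a match in the L1td1 window. Only exact matches inside these windows were searched. Variant forms of the motifs and sites elsewhere around the genes were not looked for, so that binding sites of Pou5f1 or Sox2 may lie there. The share of all windows with a match was 16.3% for AGGTCA, 1.74% for ATTTGCAT, 12.6% for CATTGT and 13.6% for TATAAA. The window of Utf1 held 17 CpG dinucleotides with a GC content of 62.0%, and that of L1td1 held 14 CpG with 58.7%. The median over all windows was 7 CpG and a GC content of 52.7%.

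Utf1 was the gene of the 7 with the lowest ratio. It had 301 FPKM in ESCs and 17.3 FPKM in RA-treated cells, a 17.4-fold lower value and a log2 ratio of -4.12. A lower ratio was found for 92 of the 13293 genes (0.692%). In ESCs Utf1 was second of the 7 in level, and in RA-treated cells it ranked below Dppa2. The gene (ENSMUSG00000047751.9, GRCm38 chromosome 7, 139943789 to 139945112, plus strand) has 2 exons and a transcript of 1227 bases, of which none of the 50-base words occur in another annotated transcript. Its GC content of 63.5% was the highest of the 7 transcripts.

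L1td1 followed, with 108 FPKM in ESCs and 8.32 FPKM in RA-treated cells. This was a 13.0-fold lower value and a log2 ratio of -3.70, and 133 genes (1.00%) had a lower ratio. The level of Utf1 was 2.79 times that of L1td1 in ESCs and 2.08 times in RA-treated cells. L1td1 (ENSMUSG00000087166.9, chromosome 4, 98726734 to 98738480, plus strand) shares 1.88% of the 50-base words of its longest coding transcript with another gene. LIN28 proteins, which bind let-7 precursors and mRNAs, are known partners of L1td1. Their genes did not have lower values, with 122 FPKM in ESCs and 164 FPKM in RA-treated cells for Lin28a and with 7.56 and 25.4 FPKM for Lin28b, a 3.36-fold higher value.

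Dppa3 had 58.6 FPKM in ESCs and 7.85 FPKM in RA-treated cells, the lowest level of the 7 in the RA condition. The value was 7.47-fold lower, with a log2 ratio of -2.90, and 1.70% of the 13293 genes had a lower ratio. In ESCs Dppa3 stood at 2.15 times the level of Dppa2, and in RA-treated cells at 0.271 times. The gene (ENSMUSG00000046323.8, chromosome 6, 122626410 to 122630272, plus strand) has 4 exons. Of its 50-base words, 17.7% also occur in other annotated transcripts, all of them processed pseudogenes, with Dppa3-ps foremost.

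Of 8 genes for DNA methylation and its removal, 4 were at least 2-fold lower and 1 was at least 2-fold higher. Uhrf1, which directs the maintenance methyltransferase to replicating DNA and whose protein DPPA3 binds, had 121 FPKM in ESCs and 92.9 FPKM in RA-treated cells. Dnmt1, the maintenance methyltransferase itself, had 80.2 and 62.7 FPKM, and the de novo enzyme gene Dnmt3a had 17.4 and 16.7 FPKM. Those values lie much closer together than the values of Dppa3. The 5-methylcytosine dioxygenase gene Tet1 stood at 41.8 FPKM in ESCs against 4.16 FPKM after RA (10.0-fold lower), and Tet3 was 4.07-fold higher. Dnmt3b, Dnmt3l and Tet2 were the other lower genes, by 4.76-fold, 2.91-fold and 3.12-fold.

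Dppa3 also marks primordial germ cells, and 8 other genes known from these cells were looked up. Of these, 6 had at least 1 FPKM, of which 2 were at least 2-fold lower, 1 was at least 2-fold higher and 3 were within the limit. Tfap2c, a transcription factor of germ cell specification, was 7.41-fold lower, close to the 7.47-fold of Dppa3. Prdm1 was 2.28-fold lower, from 3.98 to 1.74 FPKM, and was within the limit with 1 FPKM added to both values. Dazl, an RNA-binding protein gene of later germ cells, was 2.18-fold higher, with 4.35 FPKM in ESCs and 9.46 FPKM in RA-treated cells. That call was lost with 1 FPKM added. Ddx4, the germ cell helicase, had 6.95 and 11.7 FPKM.

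Dppa5a was among the most abundant mRNAs of the table. It had 3612 FPKM in ESCs, rank 26 of 23235 rows, and 780.1 FPKM in RA-treated cells, rank 128. This was a 4.63-fold lower value, with a log2 ratio of -2.21, and 3.03% of the 13293 genes had a lower ratio. Dppa5a made up 0.469% of the summed FPKM of all rows in ESCs and 0.124% in RA-treated cells. It exceeded Utf1, the next of the 7 in ESCs, 12.0-fold. Even in RA-treated cells it remained above the ESC level of every other gene of the 7. The gene (ENSMUSG00000060461.5, chromosome 9, 78367052 to 78368177, minus strand) has 3 exons and a transcript of 619 bases. Other annotated transcripts hold 38.6% of its 50-base words, spread over 9 genes that are mostly pseudogenes, so that reads from these copies could have been assigned to either. The one with a row in the table was Pigp, which holds 12.3% of the words and had 26.5 and 55.2 FPKM.

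Fbxo15 had 120.2 FPKM in ESCs and 46.9 FPKM in RA-treated cells, a 2.56-fold lower value with a log2 ratio of -1.36. A lower ratio was found for 910 of the 13293 genes (6.85%). It kept 39.0% of its ESC level, against 5.75% for Utf1 and 7.72% for L1td1. In ESCs Utf1 stood at 2.50 times the level of Fbxo15 and in RA-treated cells at 0.369 times, so that the order of these genes turned. The gene (ENSMUSG00000034391.12, chromosome 18, 84934782 to 84981473, plus strand) shares no 50-base word with another gene and overlaps Timm21 on the opposite strand. Whether the counting used strand is not given in the sources used here. Timm21 had 11.3 FPKM in ESCs and 21.7 FPKM in RA-treated cells.

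Other genes of the F-box-only family passed the limit about as often as all genes did. Of 36 further rows named Fbxo, 31 had at least 1 FPKM, of which 4 were at least 2-fold lower, 2 at least 2-fold higher and 25 within the limit. The lower genes were 12.9% of the 31, near the 10.6% of all genes, and their number was 1 with 1 FPKM added to both values and 2 with each condition divided by its FPKM sum. The median of the 31 log2 ratios was -0.17. Fbxo15 had the highest FPKM of these 32 genes in both conditions, and in RA-treated cells stood at 1.18 times the level of the next gene. Among the genes with at least 1 FPKM, the lowest ratio belonged to Fbxo43, at 1.09 FPKM in ESCs and 0.259 FPKM in RA-treated cells, and the highest to Fbxo32, which was 6.54-fold higher. The SCF core genes were within the limit, with 312 and 226 FPKM for Skp1a, 35.0 and 65.8 FPKM for Cul1 and 64.0 and 66.7 FPKM for Rbx1.

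Dppa4 had 79.8 FPKM in ESCs and 33.8 FPKM in RA-treated cells, and Dppa2 had 27.3 and 29.0 FPKM. Dppa4 was thus 2.36-fold lower, with a log2 ratio of -1.24, whereas Dppa2 was 1.06-fold higher, with a log2 ratio of 0.08. Of the 13293 genes, 7.80% had a lower ratio than Dppa4 and 57.2% a lower ratio than Dppa2. The level of Dppa4 was 2.92 times that of Dppa2 in ESCs and 1.17 times in RA-treated cells. Partner genes that stood far apart in level in ESCs were thus at nearly the same level after RA. Dppa4 was the gene of the 7 nearest to the 2-fold limit. When each condition was divided by the sum of its FPKM, which adds 0.29 to every log2 ratio, Dppa4 was 1.93-fold lower and within the limit.

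These genes lie side by side on the plus strand of chromosome 16, Dppa4 (ENSMUSG00000058550.15) at 48283733 to 48294237 and Dppa2 (ENSMUSG00000072419.5) at 48303908 to 48319723. A gap of 9.67 kb with 0 annotated genes separates them. Over 805 aligned coding positions 59.8% of the bases were identical, and the longest run of bases shared by the coding sequences was 11, so that no longer stretch of either fits the other. Processed pseudogenes hold 29.1% of the 50-base words of Dppa2 and 35.9% of those of Dppa4. How much of either value came from such copies was not tested. The next gene on the far side of Dppa2 with at least 1 FPKM was Morc1, a germ line ATPase gene, with 27.1 FPKM in ESCs and 2.63 FPKM in RA-treated cells. Dppa2 therefore lay between Dppa4 and Morc1, genes with at least 2-fold lower values, with a pair of nearly equal values of its own. Morc1 was 10.3-fold lower.

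A list of 11 other SAP-domain genes held none past the 2-fold limit, with a median log2 ratio of -0.21. Genes of the 2-cell embryo known to depend on Dppa2 and Dppa4 were looked up under 12 names, of which Duxf3 had no row. The other 11 were all at least 2-fold higher in RA-treated cells, beside a share of 12.5% among all genes. The lowest fold was that of Dux, from 0.537 to 4.38 FPKM, and the highest that of Zscan4d, from 1.91 to 53.9 FPKM (28.2-fold). The Zscan4 genes are near-identical copies, so the split of reads between them is uncertain. Dppa1, the other row with a Dppa name, had 0.00578 FPKM in ESCs and 0.0165 FPKM in RA-treated cells.

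**Figure D2:**
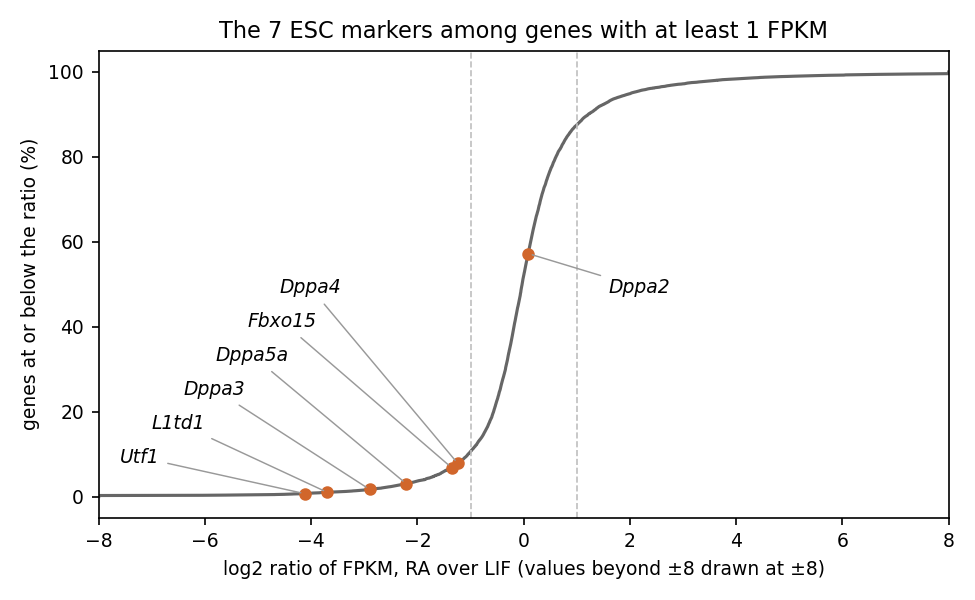
Share of the 13293 genes with at least 1 FPKM in either condition (vertical axis, percent) at or below each log2 ratio of RA over LIF (horizontal axis), with the 7 ESC markers as points and the 2-fold limits as dashed lines. Utf1, L1td1 and Dppa3 lie in the lowest 2% of the curve, Fbxo15 and Dppa4 just beyond the limit, and Dppa2 near the middle.

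By ratio the genes ran from Utf1 over L1td1, Dppa3, Dppa5a, Fbxo15 and Dppa4 to Dppa2. With a limit of 4-fold in place of 2-fold, the first 4 of these stayed past it. In ESCs the levels ran from Dppa5a over Utf1, Fbxo15, L1td1, Dppa4 and Dppa3 to Dppa2, and spanned 132-fold. In RA-treated cells Dppa2 had moved from the last place to the fourth, and the order was Dppa5a, Fbxo15, Dppa4, Dppa2, Utf1, L1td1 and Dppa3, over a span of 99.4-fold. Without replicate values, neighbours in these orders cannot be set against an error, and Fbxo15 and L1td1 in ESCs and L1td1 and Dppa3 in RA-treated cells lie closest together.

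The factors known to act upstream of several of these genes were all at least 2-fold lower. Pou5f1 had 832 FPKM in ESCs and 37.1 FPKM in RA-treated cells, Nanog had 225 and 13.9 FPKM, and Sox2 had 258 and 74.1 FPKM. Utf1 had a ratio between those of Pou5f1 (-4.49) and Nanog (-4.02), and Fbxo15 one above that of Sox2 (-1.80). Known relatives of the 7 by discovery are the ECAT genes, transcripts found to be enriched in ESCs, which include Dppa2, Dppa4, Dppa5a, Fbxo15 and L1td1. Of 7 further ECAT genes, 6 were at least 2-fold lower and 1 was within the limit, with a median log2 ratio of -2.82. Beside Nanog the lower genes were Sox15 (10.4-fold), Eras, an ESC-specific Ras gene (7.12-fold), Tdrd12 (7.04-fold), Gdf3 (4.63-fold) and Dnmt3l (2.91-fold). Khdc3, like Dppa2, had nearly equal values of 10.4 and 11.4 FPKM.

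Of 12 genes of the naive pluripotent state, 11 were at least 2-fold lower, with a median log2 ratio of -3.72. The lowest ratio was that of Fgf4 (65.7 FPKM in ESCs and 0.818 FPKM in RA-treated cells), and Tbx3, at 7.37 and 4.81 FPKM, was the gene within the limit. Zfp42 had 299 and 22.9 FPKM, a 13.0-fold lower value like that of L1td1. Genes of the formative or primed epiblast were mixed, with 5 of 9 at least 2-fold lower, 3 at least 2-fold higher and 1 within the limit. The homeobox gene Otx2 had the lowest ratio, at 37.8 FPKM in ESCs and 0.166 FPKM after RA. Dnmt3b was the most abundant of the list in ESCs, and the neural cadherin gene Cdh2 was 15.6-fold higher, from 2.28 to 35.5 FPKM.

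**Figure D3:**
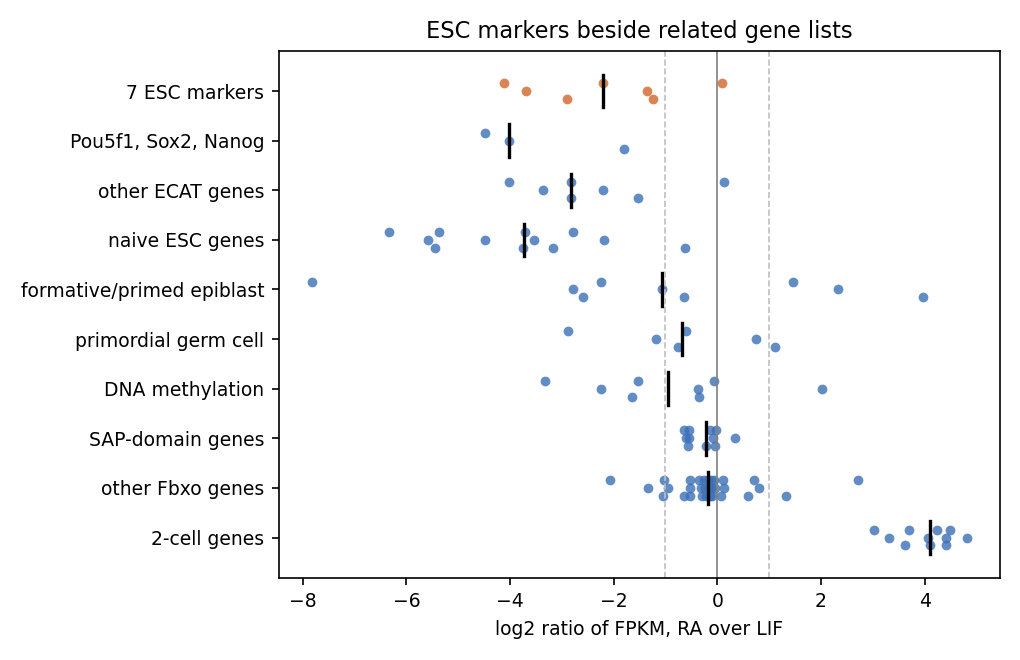
log2 ratio of FPKM, RA over LIF, for the 7 ESC markers (top row) and for genes of 9 related lists with at least 1 FPKM in either condition, 1 point per gene, with the median as a black bar and the 2-fold limits as dashed lines. The lists of naive and ECAT genes lie mostly to the left of the lower limit like 6 of the 7 markers, the SAP-domain genes lie within the limits, and the 2-cell genes lie to the right at a median of 4.10.

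Some genes near Dppa3 and Dppa5a had lower values too. Within 200 kb of the start of Dppa3, 6 genes had at least 1 FPKM, and 4 of these were at least 2-fold lower. They were Gdf3, 16.3 kb upstream, with 27.4 and 5.93 FPKM, the cytidine deaminase gene Apobec1, next to Gdf3, with 7.60 and 1.13 FPKM, Nanog, 81.1 kb downstream, and the glucose transporter gene Slc2a3, with 429 and 212 FPKM. Slc2a3 was just past the limit at 2.02-fold. Ooep, which encodes a KH-domain protein of the maternal complex in the egg, starts 10.5 kb from Dppa5a. It had 47.5 FPKM in ESCs and 9.62 FPKM in RA-treated cells, a 4.93-fold lower value beside the 4.63-fold of Dppa5a. Of 5 genes with at least 1 FPKM within 200 kb of Dppa5a, Ooep and Gsta4 were past the limit, Gsta4 only just at 2.03-fold. Mto1, Ddx43 and C920006O11Rik were within it at 1.51-fold, 1.70-fold and 1.30-fold lower. Eef1a1, 121 kb upstream of Dppa5a, is listed at 0 in both conditions, which can be a failed estimate. It was therefore not counted here or in the total below.

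Around Utf1, 3 of 10 genes were at least 2-fold lower and 1 was at least 2-fold higher. That gene was the homeobox gene Msx3, with 0.0896 FPKM in ESCs and 1.56 FPKM in RA-treated cells, 105 kb downstream. No gene within 200 kb of L1td1 (2 genes) or Fbxo15 (1 gene) was past the limit. In all, 25 distinct genes other than the 7 lay within 200 kb and had at least 1 FPKM, of which 10 (40.0%) were at least 2-fold lower, beside 10.6% among all genes. With each condition divided by its FPKM sum the count was 6 of 25, without Slc2a3, Gsta4, Adam8 and Fuom, beside 7.37% among all genes. With 1 FPKM added it was 7 of 25, with none of those near Utf1, beside 7.33%. Since the 7 genes were chosen as ESC markers, these neighbourhoods are a description of their sites.

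**Figure D4:**
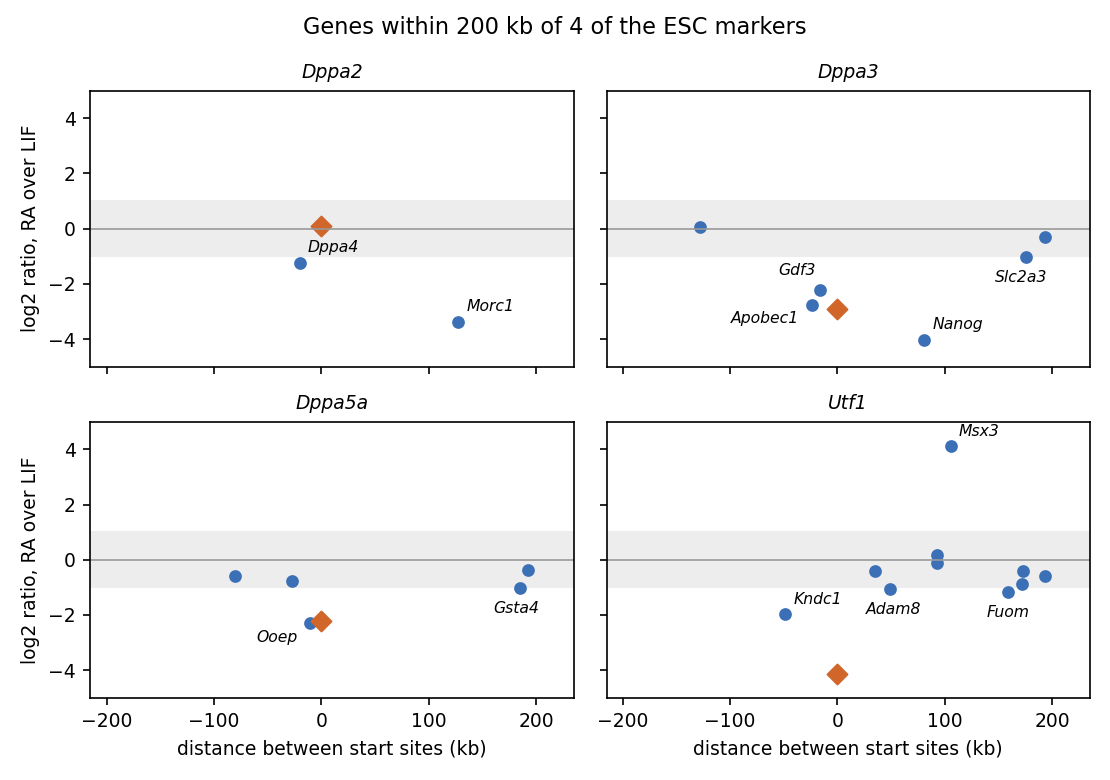
log2 ratio of FPKM, RA over LIF, for genes with at least 1 FPKM in either condition (circles) by the distance of their start site from that of Dppa2, Dppa3, Dppa5a or Utf1 (diamond at 0, downstream to the right), with the range within 2-fold in grey. Dppa3 has Apobec1, Gdf3 and Nanog below the grey band with it, Ooep lies beside Dppa5a at nearly the same ratio, and Dppa2 lies within the band between Dppa4 and Morc1.

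By distance on log2(FPKM + 1) in both conditions, the gene nearest to Utf1 was Zfp42, followed by Nanog and Phc1 (238 and 30.8 FPKM), at distances of 0.385, 0.516 and 0.864. Likeness rests on 2 values only. Nearest to L1td1 were Etv5 (116 and 7.57 FPKM), Gm10664 and the kinase gene Pim2, and nearest to Dppa3 were Pdk1 (54.7 and 8.07 FPKM), Rcan3 and Tcea3. Dppa4 had Rrp9, Anln and Snhg12 nearest, Fbxo15 had 2410004N09Rik, Prps1 and Qdpr, and Dppa2 had Coa5, Tsr3 and Pgrmc2. The genes nearest to Dppa5a were farther off, with Snord58b at 0.685, then Snord47 and Aldoa, as few rows reach its level.

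The labels were checked against markers of the cells. All 5 ESC markers looked up (Pou5f1, Nanog, Sox2, Esrrb and Zfp42) had at least 128 FPKM in ESCs and were at least 2-fold lower in RA-treated cells, and the RA-response genes Cyp26a1, Rarb and Stra8 were at least 2-fold higher. Of 5 neural progenitor genes, Pax6, Sox1 and Zic1 were at least 2-fold higher, and Nes was within the limit. Neurog2 was higher too, from 0.0436 to 0.913 FPKM, but below 1 FPKM in both conditions. Markers of neurons were low in RA-treated cells, with 0.334 FPKM for Dcx, 0.832 for Rbfox3, 2.35 for Map2 and 7.54 for Tubb3. Compared with ESCs, Dcx was higher (from 0.0140 FPKM), Rbfox3 and Map2 were within the limit, and Tubb3 was lower (from 33.4 FPKM). The summed FPKM of 5 endoderm markers was 7.16 in ESCs and 18.5 in RA-treated cells, that of 5 fibroblast markers 21.4 and 45.4, that of 4 trophoblast markers 35.6 and 5.68, most of it Tfap2c, and that of 3 mesoderm markers 0.918 and 0.605. Of endoderm markers with at least 1 FPKM, 3 were at least 2-fold higher and 1 was within the limit. Of the fibroblast markers, 3 were at least 2-fold higher, 1 was within the limit and 1, Thy1, was at least 2-fold lower. No defining marker was listed at 0, and the part of such cells in the values of the 7 genes was not tested.

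The depth of each sample is not stated. It was estimated from the lowest values of the table, which were assumed to fall on steps of whole fragments. For genes with 1 annotated transcript, FPKM was multiplied by the kilobases to which a fragment of 200 bases can align. The fullest bins of the lowest products were taken as steps. Their medians were 0.0119 (30 of 2040 values) and 0.0138 (55 values) in ESCs. In RA-treated cells they were 0.00716 (91 of 2155 values) and 0.0135 (39 values). Fullest bins can be found in any data, so that the presence of steps was not tested. The larger step of each condition was taken as the FPKM of 1 fragment per kilobase, which makes the depth an approximate estimate. In RA-treated cells the smaller step held more values (91 against 39), and with it the estimated fragments would be more and the floor lower. At the larger step, the value of Dppa3 in RA-treated cells, the lowest of the 7, rests on about 368 fragments over the 3 samples, with a counting error of 5.21%. The counting error of Dppa2 in RA-treated cells was 1.44%. The floor of 3 fragments lay at 0.0984 FPKM or less for each of the 7 genes in both conditions, so that none of their values was near it. These errors cover counting only and say nothing of the spread between cultures, against which neither the 1.06-fold difference of Dppa2 nor any other could be set.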

How the data were processed

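The authors sequenced TruSeq libraries of 3 LIF and 3 RA samples on an Illumina instrument. Per the submitters' processing notes and the study's methods, reads were aligned to mm10 (TopHat2, version 2.0.8, on Bowtie2, version 2.1.0), and Cufflinks (version 2.0.2), Cuffmerge and Cuffdiff gave the gene values. The authors deposited FPKM values, 1 per gene and condition, in which the replicates are combined. The heading of the RA column reads FPK and was taken as FPKM. The table also holds the authors' log2 fold changes, test statistics, p-values and q-values, none of which were used. The gene models and the normalization option are not given in the sources used here.

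The ratio of RA over LIF was computed without a pseudocount, and a gene was called lower or higher at 2-fold. No test was possible with 1 value per condition, and the design had foreseen limma only for values per replicate. Background counts used genes with at least 1 FPKM in either condition. The 7 genes and all lists were chosen with earlier results of these data known. Genes to be named were the 7 genes, the extremes and most abundant genes of the lists, all genes of short lists, the 3 genes nearest in level and the nearest neighbours. Morc1, Apobec1, Slc2a3, Msx3 and any other gene outside this rule were chosen after their values were seen. Positions, transcripts and 50-base words came from GENCODE M21 on GRCm38 (mm10), promoter windows from RefSeq. The estimate of depth was added with the values in view. The code of the 2-fold call was run on simulated data with genes planted without noise well past the limit, so that the run checks the code only. Python 3.11.15, numpy 2.4.6, pandas 2.3.3, Biopython 1.88 and matplotlib 3.10.9 were used.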

Additional observations from a re-analysis of the deposited data

How the results depend on the processing

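The count of ESC markers at least 2-fold lower was 6 with pseudocounts of 0.1 and 1, with centring on the median log2 ratio of -0.05 and with a 1.5-fold limit, 5 after division by the column sums (770592 in ESCs and 628679 in RA-treated cells), where Dppa4 was within the limit, and 4 with a 4-fold limit. The median log2 ratio of the 7 ranged from -2.21 to -1.92. None changed sign. The share of all genes at least 2-fold lower ranged from 7.33% to 13.2% over the filters, pseudocount and scalings. Of the genes past 2-fold, 54.0% were higher as deposited and 70.6% after division by the column sums. List counts were recomputed with a pseudocount of 1 or with column sums, settings chosen after seeing the data. Both settings can only lower such a count, so that lists with 0 lower genes could not move. Of 42 recomputed counts, these lists included, 37 stayed within 1.5 times. The others were germ cell genes (1 under both in place of 2), Fbxo genes (1 and 2 in place of 4) and genes linked to Utf1 (0 with column sums in place of 1, Suz12). Under the same settings the count of lower genes within 200 kb, 10 as deposited, was 7 and 6. No paired analysis was possible because the columns carry no replicate values, and for the same reason no replicate could be left out. An exact 0 in the table can be a failed estimate, since Eef1a1, which every cell uses, is listed at 0 in both conditions.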

Other observations

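Genes of Polycomb and of the decapping factor DCP1A, both linked to UTF1, were mostly within the 2-fold limit. UTF1 is known to compete with Polycomb at bivalent genes and to bind the decapping factor DCP1A. Dcp1a had 11.5 FPKM in ESCs and 12.0 FPKM in RA-treated cells, Ezh2 had 66.2 and 67.4 FPKM, Eed had 79.2 and 45.3 FPKM, and Suz12 was 2.14-fold lower, at 107 and 50.1 FPKM. A list of KH-domain relatives of Dppa5a and of genes of the maternal complex of the egg held 8 genes, of which 3 had at least 1 FPKM. Beside Ooep and Khdc3 this was Tle6, with 4.65 FPKM in ESCs and 5.22 FPKM in RA-treated cells. Nlrp5 had 0.0324 and 0.0281 FPKM and Padi6 0.518 and 0.134 FPKM, and Khdc1b and Khdc1c were listed at 0 in both conditions.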
